A study of Mus musculus with 6 samples.

Results

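The 43 genes described here are mouse genes whose products act in G2 or in mitosis. They were listed by name for these known roles and matched by Ensembl identifier to the 47643 genes in the files, and all 43 were found. By role, 7 act in mitotic entry, 7 are mitotic kinases or checkpoint and ubiquitination factors, 8 sit at the centromere or kinetochore, 10 at the spindle, 6 act in cytokinesis and 5 on the mitotic chromosomes themselves. Each was measured in tumor cells sorted from 6 mammary tumors, numbered 1 to 6.

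All 6 tumors came from FVB/N mice carrying the MMTV-PyMT transgene, FVB/N-Tg(MMTV-PyVT)634Mul/J, in which the mouse mammary tumor virus promoter drives the polyoma middle T oncogene in mammary epithelium. Every mouse was given B20-4.1.1, an antibody that neutralizes mouse VEGF-A, at 5 mg/kg 2 times per week for 6 weeks, with treatment starting at 7 weeks of age. Tumor cells were sorted as CD45-EPCAM+ cells, so EPCAM chose the cells and is no finding. The study classed treated tumors by low or high hypoxia (LH and HH), but the class of each of these 6 tumors is not known here, so no groups were compared and no untreated tumor was analysed here. Values are therefore given for each tumor, beside a hypoxia score. It is the mean TPM (counts scaled for exon length and library size) of Vegfa, Slc2a1 and Car9. The score was 48.5, 37.2, 51.4, 76.6, 94.4 and 47.3 in tumors 1 to 6.

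A cell enters mitosis when cyclin B and its kinase Cdk1 become active. The chromosomes then condense, kinetochores built on centromeres attach them to the spindle, and the spindle checkpoint holds the anaphase-promoting complex (APC/C) in check until every chromosome is attached. The APC/C with Cdc20 then triggers chromosome separation, and a contractile ring divides the cell. Most of these genes are transcribed late in the cell cycle, in part through the DREAM, B-Myb and FoxM1 complexes, which bind a promoter element named CHR (cell cycle genes homology region), often beside CCAAT boxes bound by NF-Y.

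Both elements were looked for in RefSeq promoter windows (GRCm38.p6) of 250 bases before to 50 bases after each gene's start, on either strand, and the 35 of 43 genes found in that table were searched. The CHR letters TTTGAA lay in 28 of the 35 windows, or 80.0%, against 20.2% of 27025 windows of all genes. Within 50 bases on either side of the start they lay in 25 windows (71.4%, against 5.72%), and both TTTGAA and CCAAT lay in 25 windows (71.4%, against 7.97%). CCAAT alone lay in 28 windows (80.0%, against 41.1%). The E2F letters GGCGGGAA, which mark many genes of DNA replication, lay in none of the 35 windows (2.52% of all genes). In the windows of 40 genes from a list of 50 genes of G1/S and DNA replication, the same search found TTTGAA in 4 (10.0%) and GGCGGGAA in 8 of the 40. A match to these letters describes the window and does not show that a factor binds there.

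The 10 windows below show this layout in genes whose values are described further on, with Birc5 as an example without either motif. Each runs from 100 bases before to 30 bases after the start, read 5′ to 3′ on the gene's own strand, and capitals mark TTTGAA and CCAAT, which read as TTCAAA and as ATTGG where they lie on the other strand.
Cdk1: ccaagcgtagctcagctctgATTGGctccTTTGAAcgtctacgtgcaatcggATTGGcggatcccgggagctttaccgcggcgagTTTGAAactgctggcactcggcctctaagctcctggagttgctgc
Ccnb2: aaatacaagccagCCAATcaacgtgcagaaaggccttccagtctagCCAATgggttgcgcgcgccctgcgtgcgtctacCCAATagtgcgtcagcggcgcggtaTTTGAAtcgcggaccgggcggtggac
Cdc20: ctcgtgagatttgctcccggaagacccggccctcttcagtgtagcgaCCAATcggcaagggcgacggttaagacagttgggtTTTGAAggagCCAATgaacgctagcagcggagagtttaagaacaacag
Ttk: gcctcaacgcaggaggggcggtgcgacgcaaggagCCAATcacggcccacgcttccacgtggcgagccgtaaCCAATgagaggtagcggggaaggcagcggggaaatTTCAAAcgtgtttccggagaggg
Cenpf: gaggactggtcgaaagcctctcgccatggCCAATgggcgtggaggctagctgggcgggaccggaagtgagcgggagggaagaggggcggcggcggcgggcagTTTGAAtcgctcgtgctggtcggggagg
Hmmr: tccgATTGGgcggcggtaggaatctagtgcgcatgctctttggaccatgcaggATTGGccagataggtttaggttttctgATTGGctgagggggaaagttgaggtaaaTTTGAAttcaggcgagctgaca
Kif11: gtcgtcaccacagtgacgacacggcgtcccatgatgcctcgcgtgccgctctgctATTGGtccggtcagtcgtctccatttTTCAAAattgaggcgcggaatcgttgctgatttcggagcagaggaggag
Racgap1: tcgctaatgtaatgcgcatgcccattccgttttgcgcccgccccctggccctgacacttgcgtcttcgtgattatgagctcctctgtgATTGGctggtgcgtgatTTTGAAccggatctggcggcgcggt
Top2a: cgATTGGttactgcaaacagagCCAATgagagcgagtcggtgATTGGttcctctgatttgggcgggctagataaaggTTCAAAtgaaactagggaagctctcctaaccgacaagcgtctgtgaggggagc
Birc5: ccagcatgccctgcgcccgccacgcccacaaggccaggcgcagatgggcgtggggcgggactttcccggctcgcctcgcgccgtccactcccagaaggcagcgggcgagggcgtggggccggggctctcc

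In GRCm38.p6 these windows are chr10:69352883-69353012 on the minus strand for Cdk1, chr9:70421525-70421654 (minus) for Ccnb2, chr4:118437314-118437443 (minus) for Cdc20, chr9:83834589-83834718 (plus) for Ttk and chr1:189688057-189688186 (minus) for Cenpf. The others are chr11:40733408-40733537 (minus) for Hmmr, chr19:37376282-37376411 (plus) for Kif11, chr15:99651627-99651756 (minus) for Racgap1, chr11:99024160-99024289 (minus) for Top2a and chr11:117849137-117849266 (plus) for Birc5. The sequences are of the C57BL/6J reference and were not read in the FVB/N mice. With the first base of the transcript as 1, TTTGAA began at base 5 in Ccnb2, 3 in Cenpf, 9 in Hmmr and 6 in Racgap1, and at base -18 in Cdc20. Cdk1 held the letters at bases -71 and -15, and Ttk, Kif11 and Top2a held them on the other strand, at bases 8, -19 and -23. The 7 genes with a window but without TTTGAA were Ccnb1, Bub1, Cenpe, Nuf2, Birc5, Nusap1 and Tacc3, of which Bub1 held the variant TTCGAA. Ccna2, Cdc25c, Foxm1, Aurkb, Tpx2, Dlgap5, Kif20a and Smc4 were not in the table.

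Libraries held between 2509482 and 5893246 counts on genes, so that a floor of 3 counts equals 0.509 to 1.20 CPM (counts scaled to the library's total on genes), for counting error only. The library of tumor 1 stood apart. Over 8873 genes its median correlation with the other libraries was 0.788, against 0.905 to 0.939 for theirs, and its level of the nuclear RNA Malat1 was 130 CPM against 6192 to 15220 CPM. The counts, ratios and slopes that rest on tumor 1 are therefore also given without it. Luminal epithelial markers (7 of 7 detected) summed to 3957 to 4874 CPM in every tumor. The summed immune markers were at 235 CPM in tumor 3 and at 16.4 to 53.7 CPM elsewhere, with Cd79a and Cd8a at 0 in all 6 libraries, and the erythroid markers at 864 CPM in tumor 3 and 5.66 to 69.4 CPM elsewhere. Endothelial markers summed to 1.59 to 4.12 CPM, with Emcn at 0, and fibroblast markers to 15.1 to 26.0 CPM. Basal epithelial markers summed to 352, 171, 171, 246, 534 and 266 CPM in tumors 1 to 6, and so were highest in tumor 5, as was the sum of the genes described next. Krt14 (359 CPM in tumor 5) and Krt17 (127 CPM) made up most of it. In all, 3 of the 7 basal markers were highest in tumor 5, but of these Myh11 had 2 counts there, under the floor of 3. Krt5 and Trp63 were highest in tumor 4 and Mylk in tumor 1. The part of these marker genes in those results was not tested.

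Taken as a sum, the 43 genes reached 837, 822, 1110, 1390, 1920 and 988 CPM in tumors 1 to 6. Tumor 5 was highest, tumor 4 next, and tumors 1 and 2 lowest, and the highest sum was 2.34 times the lowest. Smc4, Top2a, Birc5 and Plk1 made up 45.2% of the sum over the tumors. The sum was highest in tumor 5 under every scaling tried, while the lowest was tumor 2 in CPM and tumor 1 under TMM scaling, under DESeq2's size factors and without the 10 most abundant genes. The order of tumors 1 and 2 at the bottom was therefore not settled. In bulk RNA, a smaller share of dividing cells and less of these RNAs per cell cannot be told apart.

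Gene by gene, tumor 5 was highest for 34 of the 43, tumor 1 for 4 (Ccnb2, Plk1, Nuf2, Racgap1), tumor 4 for 3 (Kif4, Dlgap5, Mki67) and tumor 3 for 2 (Cdk1, Cenpa). Tumors 2 and 6 were highest for 0. The lowest tumor was tumor 1 for 18 genes, tumor 2 for 15, tumor 6 for 9 and tumor 3 for 1. All 43 were above the median of the other tumors in tumor 5, as were 52.6% of the 10416 genes that passed the count filter described next. The median difference on the log2(CPM + 1) scale was 0.98 for the 43 genes and 0.03 for those 10416. Without tumor 1 it was 0.89 and 0.03, again with all 43 genes above.

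**Figure D1:**
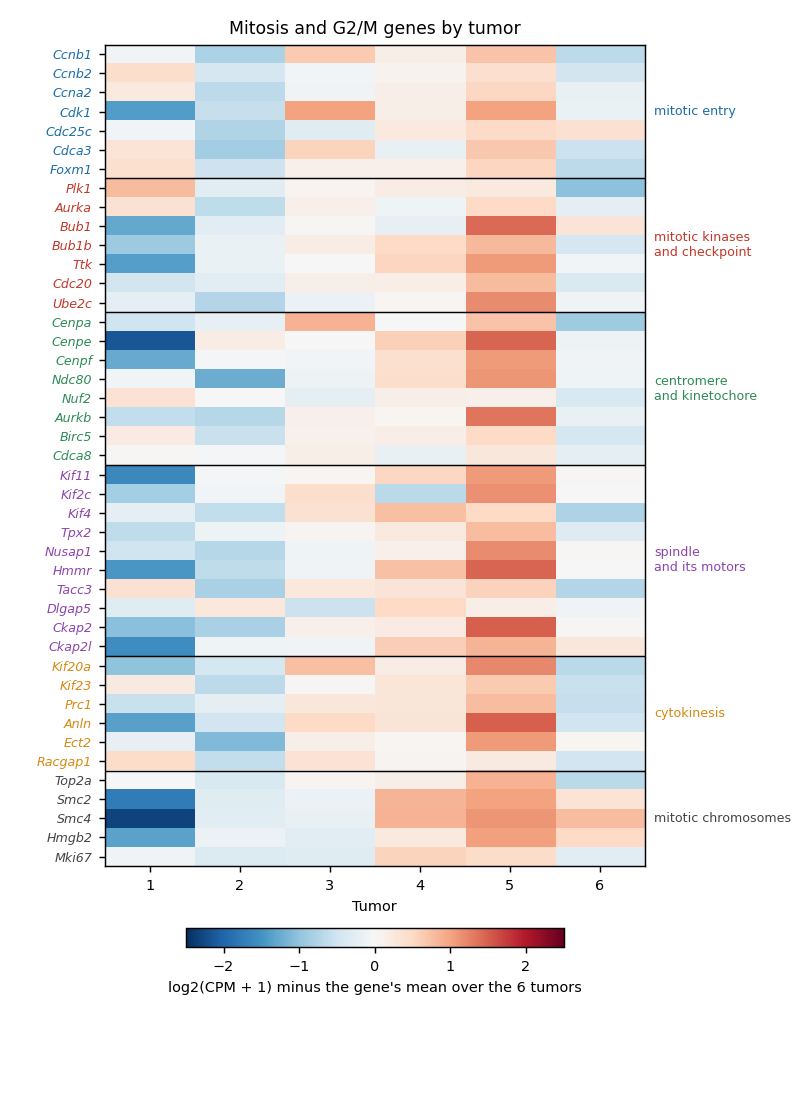
Heat map of the 43 genes (rows, grouped by role) in the 6 tumors (columns). Color gives log2(CPM + 1) minus the gene's mean over the 6 tumors. Tumor 5 is above that mean for all 43 genes, against 12, 2, 27, 38 and 10 genes in tumors 1, 2, 3, 4 and 6. Of the 10416 genes that passed the count filter, 52.3% are above their mean in tumor 5. In tumors 1, 2, 3, 4 and 6 that share is 56.3, 43.9, 61.0, 49.7 and 35.7%.

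For counts over all genes, a gene was used only if it reached 2.06 CPM in every tumor, the level of 10 counts in a library of median size. This left 33 of the 43 and 10416 genes in all, and the shares of all genes among single tumors refer to these 10416. A gene low in any 1 tumor fails this filter. The 10 that did not pass were Cdc25c, Bub1, Aurkb, Kif11, Kif2c, Kif4, Dlgap5, Ckap2, Kif20a and Anln, and their values are given below. The highest tumor was at least 2 times the lowest for 29 of the 33, where the share over all genes was 67.1%. Without tumor 1 it was again 29 of 33, against 37.4% of all genes. Without tumor 5 it was 21 of 33, against 61.7% of all genes, so the excess over all genes rested on tumor 5. For the counts, ratios, differences and dispersions given without tumor 1, the filter itself still used all 6 tumors. Tumor 5 was highest for 26 of the 33, where 17.2% of all genes peaked, and for 28 of 33 against 24.2% without tumor 1. Tumor 1 was lowest for 12 of the 33 against 26.2%. The 95% Poisson intervals of the highest and lowest tumor did not overlap for 32 of 33 against 90.8% of all genes, so nearly every gene differed between tumors by more than counting error and this count is near the background. The ratio of the highest to the lowest tumor had a median of 3.41 over the 33 genes, from 1.44 for Cdca8 to 13.95 for Cenpe, and of 2.34 over all genes. Without tumor 1 the median was 2.53 for the 33 genes and 1.81 for all genes. The 33 genes then ran from 1.44 for Cdca8 to 6.76 for Ndc80, and Cenpe was at 3.08. Ndc80 had only 6 counts in its lowest tumor, tumor 2.

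**Figure D2:**
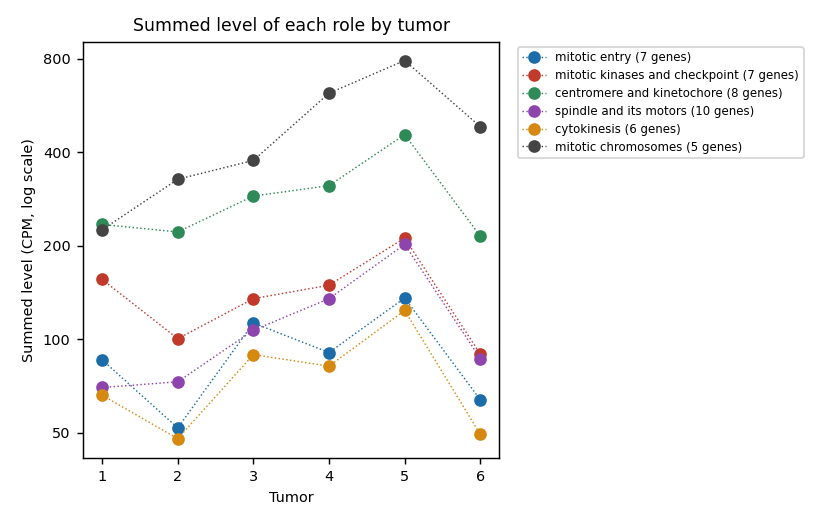
Summed CPM of the genes of each role (log axis) in each tumor. All 6 sums were highest in tumor 5, and dotted lines only join the points of one role, since the tumors have no order.

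The genes of mitotic entry summed to 85.9, 51.8, 113, 90.6, 136 and 63.8 CPM in tumors 1 to 6. Cdk1, the kinase that drives entry, measured 6.11, 11.6, 36.6, 19.8, 36.5 and 15.8 CPM, so tumors 3 and 5 were alike at the top and tumor 1 lowest. Its partner Ccnb1, cyclin B1, measured 12.4, 7.17, 21.1, 14.7, 22.0 and 8.004 CPM. Tumors 3 and 5 led for both partners, but tumor 1 was near the middle for Ccnb1 and lowest for Cdk1.

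Ccnb2, the second B-type cyclin, measured 21.2, 11.2, 14.6, 16.4, 21.0 and 10.9 CPM in tumors 1 to 6. Ccna2, cyclin A2, which acts in S phase and G2, measured 20.9, 10.8, 16.3, 19.8, 25.4 and 15.2 CPM. For both cyclins tumors 1 and 5 led, and the ratios of the highest to the lowest tumor were 1.94 and 2.36. Cdca3, which promotes the removal of the Cdk1 inhibitor Wee1, ranged from 3.99 CPM in tumor 2 to 13.6 in tumor 5. Foxm1, the transcription factor that activates many G2/M genes, ranged from 5.66 CPM in tumor 6 to 14.2 in tumor 5, with tumor 1 at 12.9. Cdc25c, the phosphatase that activates Cdk1, was too sparse to order the tumors: its ratio of 4.01 rested on 16 and 2 counts, with a 95% counting interval from 0.942 to 35.9.

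Mitotic kinases and checkpoint genes summed to 156, 100.4, 135, 149, 212 and 89.6 CPM. Plk1, polo-like kinase 1, which acts from entry to cytokinesis, measured 107, 49.8, 64.3, 70.0, 72.7 and 29.5 CPM in tumors 1 to 6. It was one of the 4 genes highest in tumor 1, and tumors 3, 4 and 5 lay within 64.3 to 72.7 CPM. Aurka, the kinase of centrosome maturation, ranged from 5.58 CPM in tumor 2 to 13.4 in tumor 5, with tumor 1 at 12.4.

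The checkpoint kinase Ttk (Mps1) measured 4.41, 11.6, 13.1, 19.6, 28.6 and 12.5 CPM, with tumor 1 far below the others and tumor 5 highest. Bub1, the kinase that recruits checkpoint proteins to kinetochores, measured 0.679, 2.39, 3.15, 2.55, 9.98 and 4.10 CPM, and Bub1b (BubR1), a subunit of the checkpoint complex, 2.21, 4.38, 5.82, 7.45, 9.58 and 3.51 CPM. All 3 checkpoint genes were lowest in tumor 1 and highest in tumor 5. At the low end, in tumors 1 and 2, Bub1 had only 4 and 6 counts and Bub1b 13 and 11.

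Cdc20, the APC/C activator that the checkpoint inhibits, measured 13.9, 15.9, 21.8, 22.1, 34.3 and 15.0 CPM. Ube2c, the ubiquitin-conjugating enzyme of the APC/C, measured 15.4, 10.8, 16.7, 19.1, 43.3 and 17.4 CPM. In Ube2c, 5 tumors lay between 10.8 and 19.1 CPM and tumor 5 alone lay above, whereas Cdc20 was spread more evenly. Of 19 other checkpoint and APC/C genes, 4 were highest in tumor 5. Their sum was highest in tumor 1, at 1244 CPM against 679 to 847 CPM, with Anapc11, a core APC/C subunit, at 185 CPM in tumor 1 against 55.8 to 96.2 CPM and Mad2l1, a checkpoint effector, at 28.2 CPM in tumor 5 against 7.17 to 21.1 CPM.

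Centromere and kinetochore genes summed to 234, 222, 289, 313, 456 and 215 CPM. Cenpe, the kinetochore kinesin that carries chromosomes to the spindle equator, measured 5.77, 33.1, 29.1, 44.2, 80.5 and 26.2 CPM in tumors 1 to 6. Cenpf, a large protein of the outer kinetochore, measured 18.2, 43.8, 43.2, 60.2, 95.0 and 42.4 CPM. The order of tumors 4 and 5 at the top and tumor 1 at the bottom was shared by both, and tumors 2, 3 and 6 lay within 42.4 to 43.8 CPM for Cenpf.

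Ndc80 and Nuf2 are subunits of one complex that grips spindle microtubules, and their levels differed in pattern. Ndc80 measured 6.62, 2.39, 6.31, 9.79, 16.2 and 6.44 CPM, with tumor 5 highest. Nuf2 measured 7.47, 5.58, 4.61, 6.38, 6.19 and 4.10 CPM, and its highest and lowest tumors had overlapping counting intervals. Windows of 50 bases were taken from the last 300 bases of each gene's longest transcript. Of these, 7.97% for Ndc80, 5.58% for Nuf2 and 14.3% for Cenpf also occur in another gene. How such reads were counted is not given in the sources used here.

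Cenpa, the histone H3 variant that marks centromeres, was highest in tumor 3 at 23.0 CPM, followed by tumor 5 at 20.6 CPM, and the other tumors lay within 6.05 to 12.1 CPM. The chromosomal passenger complex corrects wrong attachments, and 3 of its subunits were on the list. Its kinase Aurkb measured 2.21, 1.99, 4.37, 4.04, 11.4 and 3.32 CPM, with tumor 5 alone above 4.37 CPM. Birc5 (survivin) measured 142, 82.5, 131, 138, 174 and 90.4 CPM, and Cdca8 (borealin) 44.0, 41.8, 47.5, 37.7, 52.1 and 36.1 CPM. Cdca8 had the smallest ratio of the 33 genes, 1.44, against 5.71 for Aurkb in the same complex. Of 25 other kinetochore and centromere genes, 12 were highest in tumor 5, and their sum ranged from 344 to 516 CPM.

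Spindle genes summed to 69.9, 72.9, 107, 135, 202 and 86.7 CPM. Hmmr, a spindle pole protein, measured 4.58, 8.77, 13.3, 24.3, 40.9 and 14.1 CPM in tumors 1 to 6, so that tumor 5 was 8.93 times tumor 1. Without tumor 1 the ratio of the highest to the lowest tumor was 4.67. Tumors 3 and 6 differed by less than 1 CPM. Nusap1, a microtubule-bundling protein, measured 7.13, 5.98, 9.70, 11.5, 25.0 and 10.7 CPM, again with tumor 5 alone. Tpx2, which activates Aurora A on the spindle, measured 12.2, 17.9, 20.6, 23.4, 33.9 and 15.4 CPM.

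Among the motors, Kif11, which pushes the spindle poles apart, measured 1.36 CPM in tumor 1, 5.98 to 9.36 CPM in tumors 2, 3, 4 and 6, and 14.2 CPM in tumor 5. Kif2c, which depolymerizes microtubules at centromeres, ranged from 1.19 CPM in tumor 1 to 7.79 in tumor 5, with only 7 counts each in tumors 1, 2 and 4. Kif4, a motor on chromosome arms, was highest in tumor 4 at 4.68 CPM, with 3.79 CPM in tumor 5 and 0.976 CPM in tumor 6. These levels rested on 22, 19 and 5 counts. Tacc3, which stabilizes spindle fibers, measured 36.0, 15.1, 33.0, 34.3, 40.9 and 16.0 CPM, with tumors 2 and 6 apart at the bottom. Ckap2l, a spindle pole protein, ranged from 3.73 CPM in tumor 1 to 24.0 in tumor 5, and its relative Ckap2 from 0.848 to 9.78 CPM in the same tumors. Ckap2 was sparse, with 5 counts in tumor 1, 3 in tumor 2, at the floor, and 49 in tumor 5. Its ratio of 11.5 had a counting interval from 4.62 to 37.1. Dlgap5, a spindle assembly factor, had 3 to 12 counts in its lowest and highest tumors, and its ratio of 3.51 had a counting interval from 0.947 to 19.4. Of 25 other genes of the spindle, motors and cytokinesis, 15 were highest in tumor 5. Their sum was 173, 187, 235, 261, 350 and 154 CPM.

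Cytokinesis genes summed to 66.0, 47.8, 89.2, 81.9, 124 and 49.4 CPM. Prc1, which bundles the microtubules of the central spindle, measured 15.3, 19.5, 28.4, 28.5, 40.1 and 15.0 CPM. Centralspindlin is built of Kif23 and Racgap1. Kif23 measured 10.4, 5.18, 8.97, 11.1, 14.4 and 5.66 CPM, and Racgap1 31.6, 14.4, 29.3, 23.6, 26.4 and 15.8 CPM. Tumors 2 and 6 were lowest for both partners, while tumor 5 led for Kif23 and tumor 1 for Racgap1.

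Ect2, which activates RhoA for the contractile ring, measured 6.11, 2.79, 8.002, 7.45, 16.0 and 7.42 CPM, and Anln (anillin), the scaffold of the ring, 1.70, 3.99, 8.73, 7.66, 18.6 and 3.91 CPM. Kif20a, which carries the passenger complex to the central spindle, measured 1.02, 1.99, 5.82, 3.62, 8.39 and 1.56 CPM. For all 3 the level in tumor 5 was the highest and that in tumor 3 the next. The second place rested on few counts and was not settled. Ect2 had 33, 35 and 38 counts in tumors 3, 4 and 6. In tumors 3 and 4, Anln had 36 and 36 counts and Kif20a 24 and 17.

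Genes of the mitotic chromosomes summed to 225, 328, 377, 620, 791 and 484 CPM, a ratio of 3.51 that rested on tumor 1. Without tumor 1 it was 2.41, and the spindle genes had the largest ratio of the 6 roles, 2.77. Smc4, a core ATPase of condensin, measured 31.2, 133, 139, 290, 342 and 271 CPM in tumors 1 to 6. Its partner Smc2 measured 14.4, 40.7, 45.8, 92.3, 103 and 64.0 CPM. The tumors fell in the same order for both partners, with tumors 5, 4 and 6 at the top, tumors 3 and 2 close together and tumor 1 lowest.

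Condensin also acts outside mitosis, and so do many of the 15 other condensin and cohesin genes, of which 11 were lowest in tumor 1 and 3 highest in tumor 5. Their sum was highest in tumor 4, at 2086 CPM, and lowest in tumor 1, at 1114 CPM. The condensin II subunit Ncapd3 was at 3.90 CPM in tumor 1 against 24.6 to 56.6 CPM. The cohesin subunit Smc3 was at 36.5 CPM in tumor 1, 89.5 to 103 CPM in tumors 2 and 3, and 189 to 215 CPM in tumors 4 to 6. Without Smc2 and Smc4, a choice made after seeing the data, the members summed to 792, 649, 925, 1007, 1476 and 653 CPM, and tumor 5 was still highest.

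Top2a, the topoisomerase that untangles sister chromatids, measured 130, 100.4, 138, 147, 240.0 and 82.2 CPM in tumors 1 to 6. Mki67, which coats mitotic chromosomes and encodes the proliferation marker Ki-67, measured 41.6, 34.7, 35.7, 65.5, 61.3 and 35.9 CPM. The 2 usual proliferation markers did not order the tumors alike, since tumors 4 and 5 were close for Mki67 and apart for Top2a. Hmgb2, a chromatin protein of dividing cells, measured 7.81, 19.1, 17.7, 25.3, 44.5 and 30.5 CPM, with tumor 6 second.

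Tumor 1 split the list. In tumor 1, 14 of the 43 genes were above the median of the other tumors and 29 were under it. On the log2(CPM + 1) scale the difference ranged from -3.08 for Smc4 to 0.73 for Plk1, with a median of -0.53. Over the 10416 genes that passed the count filter the median was 0.13. Under -1 lay 15 of the 43 genes and 13.6% of those 10416. These sets are unlike, since the filter drops genes low in tumor 1 and 10 of the 43 did not pass it. Bub1, Kif11, Ckap2, Kif20a and Anln were among those 10 and lay under -1. Genes under the median had a GC content of 38.0% (median) in the last 300 bases of the transcript and 3668 transcript bases, and those above it 41.2% and 2652 bases. Over the 43 genes, the difference had a correlation of 0.45 with GC content and -0.42 with log2 transcript length. Over 9936 genes with a transcript in the annotation these were 0.45 and -0.25, so the tilt with GC content was as large over all genes. These points share 1 library, and the part of GC content and length in the levels was not tested.

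**Figure D3:**
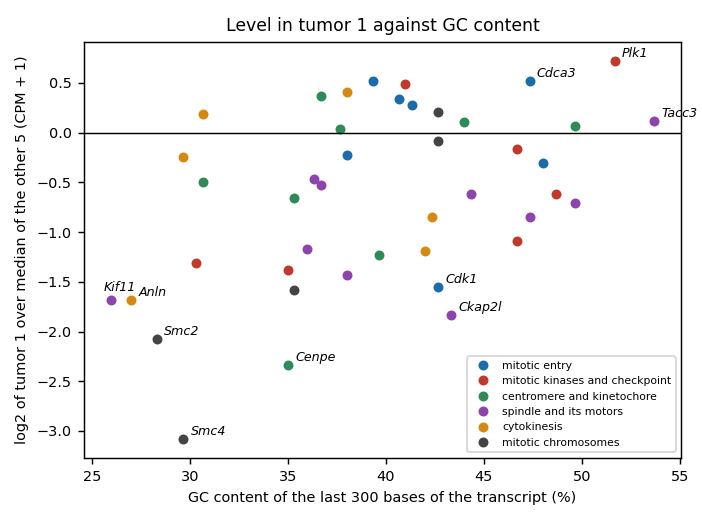
Each point is 1 of the 43 genes, colored by role: GC content of the last 300 bases of the transcript (percent) against the level in tumor 1 over the median of the other 5 tumors, on the log2(CPM + 1) scale. Smc4 at -3.08 and Smc2 at -2.08 lie at low GC content and Plk1 at 0.73 at high GC content.

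Next, the levels were set beside the hypoxia score. Each gene's counts were fitted in edgeR's quasi-likelihood model with log2 of the score as the only term, over 12563 genes with TMM scaling, and the slope is the log2 change per doubling of the score. Of the 43 genes 42 were tested, all but Dlgap5. With Benjamini-Hochberg adjustment at 0.05, 0 of the 42 passed, and 0.0% of all genes. In a simulation of this fit, 200 of 12563 genes were given a slope of 2 in either direction, and 38.5% of them were recovered. That slope is larger than any of the 42, of which the largest was 1.92 for Ckap2. Recovery at the slopes of these genes was not simulated. At an unadjusted p under 0.05 there were 13 of 42, where the share over all genes was 4.31%. In DESeq2, an alternative tool, 16 genes passed, of which 0 were among the 42, and 10 of the 42 had an unadjusted p under 0.05, against 4.60% of all genes.

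The slope was above 0 for 42 of 42, where 46.8% of all genes had such a slope, and its median was 0.89 over the 42 genes and -0.04 over all genes. The 42 slopes come from the same 6 libraries and are not independent. Hmmr had the smallest p of the 42 and a slope of 1.69 ± 0.47 (SE, n = 6 tumors), with an adjusted p of 0.91 in edgeR's quasi-likelihood test. Next came Ndc80 (1.51 ± 0.44) and Ube2c (1.19 ± 0.35). The other genes with an unadjusted p under 0.05 were Ttk, Cdc20, Aurkb, Nusap1, Ckap2, Prc1, Anln, Ect2, Top2a and Mki67. Their slopes lay between 0.70 for Mki67 and 1.92 for Ckap2.

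By role, the median slope was 0.71 for mitotic entry, 1.06 for kinases and checkpoint, 0.79 for the centromere and kinetochore, 1.10 for the spindle, 1.06 for cytokinesis and 0.84 for mitotic chromosomes. None of the 7 entry genes had an unadjusted p under 0.05 in edgeR's test, and their adjusted p-values were all 0.95. The smallest slopes were those of Cdca8 (0.10 ± 0.29), Nuf2 (0.12 ± 0.47), Plk1 (0.27 ± 0.46) and Racgap1 (0.32 ± 0.40), and for each the SE exceeded the slope.

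**Figure D4:**
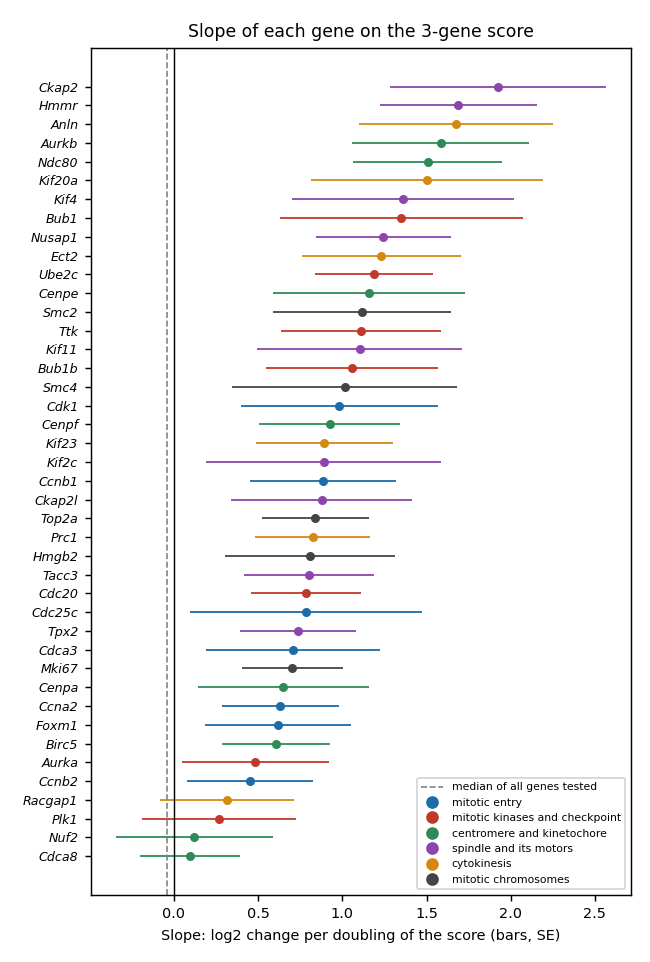
Slope of each of the 42 tested genes on the score (log2 change per doubling of the score) with its SE, colored by role and sorted by slope. All points lie right of 0, from 0.10 for Cdca8 to 1.92 for Ckap2, and the dashed line marks the median of all genes, -0.04.

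The relation rested in part on tumor 5, which had the highest score. Without it, 0 of the 42 had an unadjusted p under 0.05 in edgeR's test (0.687% of all genes), the slope was above 0 for 39 of 42 (46.5% of all genes), and the median slope was 0.66. Bub1 moved from 1.35 to -0.06 and Kif2c from 0.89 to -0.89, whereas Hmmr kept 1.41 and Ndc80 1.49. Without tumor 1, whose library stands apart, 22 of 42 had an unadjusted p under 0.05 against 8.41% of all genes, again with 0 of 42 past the adjusted threshold, and the smallest adjusted p of the 42 was 0.14. Mouse identifiers carry the prefix QAF for tumors 1, 4, 5 and 6 and QSD for tumors 2 and 3. With the prefix as a term the median slope was 1.12 with 41 of 42 above 0, and within the 4 QAF tumors it was 1.12, with 42 of 42 above 0. With 2 QSD tumors no slope with an error could be had within that prefix.

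The genes of the earlier cell cycle phases had a narrower range in sum. The 50 genes of G1/S and DNA replication summed to 1155, 908, 1059, 935, 1265 and 888 CPM, a ratio of 1.42 against 2.34 for the 43 genes. The mean centred level, which weights genes equally, is log2(CPM + 1) minus the gene's mean over the tumors, averaged over the genes. For the mitosis and G2/M genes it was -0.53, -0.43, 0.11, 0.25, 0.84 and -0.24 in tumors 1 to 6. For the G1/S genes it was -0.13, -0.21, 0.15, -0.06, 0.42 and -0.17. Tumor 5 was highest for both on this scale, and tumor 4 was next for the mitosis genes and tumor 3 for the G1/S genes, whose sum was next highest in tumor 1. The difference between both levels was 0.31 in tumor 4 and 0.41 in tumor 5, and between -0.41 and -0.04 in the other 4. In tumors 3 and 6, where it was -0.04 and -0.07, its sign changed with the scale or with a tumor left out. On the score, 39 of 50 G1/S genes had a slope above 0, against 46.8% of all genes, and their median slope was 0.26. Of the 50, 1 had an unadjusted p under 0.05 in edgeR's test, against 4.31% of all genes. The difference between both sets of genes was not tested.

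**Figure D5:**
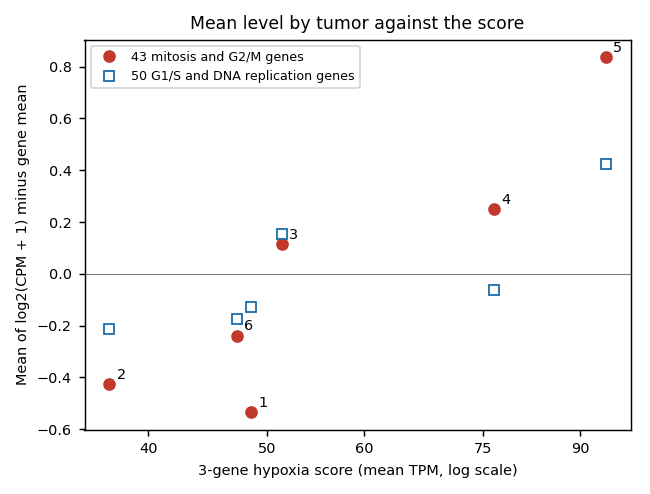
Mean centred log2(CPM + 1) of the 43 mitosis and G2/M genes (filled circles, with the tumor's number) and of 50 G1/S and DNA replication genes (open squares) against the 3-gene hypoxia score (mean TPM, log axis). Tumor 5 is at the top right for both, with 0.84 and 0.42, and tumor 1 lies lowest for the mitosis genes at -0.53.

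Other lists of mitosis genes had lower median slopes than the 43 genes. The median slope was 0.70 for 24 tested genes of the spindle, motors and cytokinesis (20 above 0), 0.50 for 23 entry kinases and regulators (17 above 0), 0.28 for 24 kinetochore and centromere genes (17 above 0), 0.23 for 15 condensin and cohesin genes (11 above 0) and 0.07 for 19 checkpoint and APC/C genes (12 above 0). Of these lists 0 genes passed the adjusted threshold in edgeR's test. In that test 9 had an unadjusted p under 0.05, or 4, 0, 2, 1 and 2 in the order above, against 4.31% of all genes. The share of all genes with a slope above 0 was 46.8%. For 18 brakes on the cell cycle, such as Cdkn1b (p27), the median was 0.26, with 15 above 0. For the 5 lists of mitosis genes, from spindle to checkpoint in the order above, the share of windows with TTTGAA was 65.2%, 31.6%, 40.0%, 41.7% and 22.2%, which did not follow the order of the slopes throughout. In tumor 5, the difference from the median of the other tumors on the log2(CPM + 1) scale had a median of 1.01 for the 28 genes with TTTGAA in the window and 0.78 for the 7 without.

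The spread between tumors was also read from edgeR's dispersion, fitted without the score. Of the 33 genes that passed the count filter, 20 had a dispersion above the trend for their level, as did 32.8% of 10416 genes. The median biological coefficient of variation was 0.371 for the 33 genes and 0.323 for all genes. Without tumor 1, 24 of the 33 lay above the trend against 31.8%, with medians of 0.306 and 0.246. Since these genes differ between tumors together, the 33 values are not independent.

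Some counts can hold reads of a neighbour. Exons of 12 of the 43 genes overlap an exon of a gene on the other strand, among them Ccna2 (Exosc9), Cdc20 (Elovl1), Ube2c (Tnnc2), Prc1 (Rccd1), Tacc3 (Tmem129), Nusap1 (Oip5), Kif4 (Pdzd11) and Kif20a (Cdc23), and those of Foxm1 and Top2a overlap a gene on the same strand. The kit keeps strand, but whether counting used it is not given in the sources used here, so these levels are uncertain.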

How the data were processed

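The deposited values are raw counts of reads on each gene, 1 table per tumor. CD45-EPCAM+ cells were sorted, and libraries were made with the QuantSeq 3′ kit (FWD) with identifiers of 6 bases. The authors ran bbduk for trimming, STAR 2.5 against GRCm38/mm10 for alignment and HTSeq for counting, all on Bluebee, as the study's methods and the submitters' processing notes state. The annotation release, the strand setting and any collapsing by molecular identifier are not given in the sources used here. Each table also has 5 lines for reads on no gene (16.1 to 41.4%), which were not used.

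CPM used the total over all genes. TPM for the score used union exon lengths of GENCODE M21. The slope was fitted with edgeR 4.0.16 (glmQLFit and glmQLFTest, TMM, filterByExpr with a minimum count of 10 and a minimum total of 15) in R 4.3.3, adjusted by Benjamini-Hochberg over all genes tested. The fit was tested on simulated data. DESeq2 1.42.0, other scalings, filters and scores, the prefix of the mouse identifier and each tumor left out were alternatives. Values without tumor 1, without tumor 5 and without Smc2 and Smc4 were placed in the report after seeing the data. P-values measure only the spread between these samples, and intervals and floors cover counting error only. Exact Poisson intervals were at 95%. The other steps ran in Python 3.11.15.

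The genes and lists were chosen with earlier results of these data known. Any of the 43 genes could be named. Of the other lists, genes were named from the 3 largest and 3 smallest ratios between tumors at a mean of at least 10 CPM. The 10 genes outside the lists whose log2(CPM + 1) correlated best with the members' mean centred level were named too. Malat1, Myh11, Trp63 and the markers at 0 were named after their values were seen. The CD45+ cells and vehicle-treated tumors were not analysed here.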

Additional observations from a re-analysis of the deposited data

Results flagged for a closer look

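For 5 of the 43 genes tumor 5 stood apart from the other tumors, the gap to the nearest tumor being over 0.625 of the whole range (Dixon's 95% limit for 6 values). The share was 0.632 for Bub1 (9.98 CPM), 0.743 for Ube2c (43.3 CPM), 0.747 for Aurkb (11.4 CPM), 0.710 for Nusap1 (25.0 CPM) and 0.714 for Ckap2 (9.78 CPM). The summed other checkpoint and APC/C genes stood apart in tumor 1 (1244 CPM), with a share of 0.703. In tumor 3 the immune markers (235 CPM) had a share of 0.829 and the erythroid markers (864 CPM) one of 0.926. In all, 63 values were looked at and 8 stood apart. For normally distributed values, chance alone gives about 1 in 20, or 3.15 of 63. The values here are CPM without a log scale, whose distribution was not tested, so 3.15 is only a rough guide. The 43 genes are also not independent of each other.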

How the results depend on the processing

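Of 122 alternative values for 12 results, 113 moved by less than the limits set for a change. Of these, 4 values of the difference between the 43 genes and the G1/S genes had the opposite sign, all near 0: in tumor 3, at -0.04, it was 0.02 without tumor 4 and 0.04 without tumor 5, and in tumor 6, at -0.07, it was 0.02 with summed CPM and 0.02 without tumor 5. The number of genes with a highest tumor at least 2 times the lowest, 29 of 33, was 18 at a fold of 3, where 28.4% of all genes passed. It was 21 without tumor 5, against 61.7% of all genes, a change that is still counted among the 113. The summed level's ratio of 2.34, tumor 5 over tumor 2, was 1.69 without tumor 5. It could not change with tumor 1, 3, 4 or 6 left out, so those values, counted among the 113, were fixed in advance. On the score, 0 genes were called in edgeR's test, 16 in DESeq2 and 10 without a filter on low counts, and 0 to 2 with each tumor left out, the 2 being without tumor 1. Of the 42 tested genes 0 were called under any of these. With the score as a geometric mean of TPM, 21 of the 42 had an unadjusted p under 0.05 in edgeR's test, against 7.35% of all genes. The median slope of the 42 was then 0.82, and tumor 1 had the lowest score, 29.0. With the score as mean CPM, 13 of the 42 had such a p, against 4.81% of all genes. The median slope of 0.89 was 1.12 with the identifier prefix as a term, 1.12 in the QAF tumors alone, and 0.66 to 1.06 with each tumor left out, lowest without tumor 5 and highest without tumor 2. The cause was not tested. No paired analysis was possible because the samples form 1 group. Depth limited Cdc25c and Dlgap5, whose counting intervals reached below 1.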

Other observations

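Outside the lists, the 8725 genes whose mean reached 10 CPM were ranked by the correlation of log2(CPM + 1) over the 6 tumors with the mean centred level of the 43 genes. The 10 nearest were Clic4 (r = 0.99), Car9, Haus6, Vmp1, Mrpl45, Mrpl10, Rpf2, Epb41l2, Dbr1 and Fzd5 (r = 0.97), and 26 genes had an r of at least 0.95. With 6 tumors and 8725 genes, high values are found by the ranking itself, and they are given as a description. Clic4, a chloride intracellular channel protein, measured 27.5, 31.9, 46.1, 48.3, 69.1 and 37.5 CPM in tumors 1 to 6, and its r was 0.99 without tumors 1 and 5.

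Car9, the carbonic anhydrase of hypoxic cells and a gene of the score, was second of the 8725 genes. It measured 8.82, 11.2, 17.0, 24.5, 46.5 and 14.3 CPM in tumors 1 to 6, which is the same order of tumors as that of the mean centred level of the 43 genes. Its r was 0.99, and 0.95 without tumors 1 and 5. The other genes of the score ranked lower: Vegfa was at rank 22 (r = 0.95) and Slc2a1, the glucose transporter, at rank 822 (r = 0.72). Haus6, a subunit of the augmin complex that branches spindle microtubules, was the third gene and was not on the lists. It measured 11.7, 12.8, 16.7, 18.9, 22.2 and 14.1 CPM.

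Among 18 brakes on the cell cycle, 5 were highest in tumor 5, and their sum was highest in tumor 4, at 1654 CPM, against 1104 CPM in tumor 5. The 3 with the largest ratios between tumors were Ccng2, Gas1 and Btg1. Ccng2 measured 5.43, 10.8, 40.3, 19.6, 63.1 and 28.3 CPM and was highest in tumor 5, whereas Gas1 (74.0 CPM) and Btg1 (119 CPM) were highest in tumor 4, and all 3 were lowest in tumor 1.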
